A study of Drosophila melanogaster with 2 samples.

Results

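Of the reproducible binding peaks of Krüppel (Kr) in whole Drosophila melanogaster embryos, 236 lay on the X chromosome, or 11.2% of the list. They were taken by their chromosome name alone from the authors' dm6 list thresholded by irreproducible discovery rate (IDR), and were set against 459 peaks on 2L, 481 on 3L and 512 on 3R, 1452 together. The rest of the list, 403 peaks on 2R and 11 on chromosome 4, was not the comparator. The study had 1 group of 2 biological replicates, numbered 2 and 3. Each was a ChIP-seq library from embryos of both sexes pooled, collected from 0 to 10 h, of a transgenic line with an insertion that stably expresses Kr carrying GFP at its C terminus, precipitated through GFP. Cells were not separated, so a peak does not show which cell type held it. No untagged line, other genotype or other stage was compared. Read counts were not among the files, which leaves the depth of both libraries unknown.

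Kr is a zinc finger protein of the gap class that binds DNA and represses many of its targets. In the early embryo it fills a central band of the trunk and sets borders of other segmentation genes, and later it is made again in parts of the nervous system, in muscle founders and in excretory tissue. The X chromosome holds several genes that act beside it, among them the gap gene giant (gt), the pair-rule gene runt (run) and the X-linked genes by which the embryo reads its sex. Males have a single X and raise its transcription by dosage compensation, which works through the male-specific lethal complex and the roX RNAs.

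The sequences under 5 high X peaks show what lay at the summits on which the results below turn. They are the 3 highest X peaks, the highest X peak in a promoter, at ph-p, and the peak at gt, the X gene with the best known ties to Kr. Each run holds the summit base and 50 bases on either side, read 5′ to 3′ on the plus strand of the dm6 genome sequence from NCBI RefSeq. Capitals mark the Kr core word AAGGGTT, or AACCCTT where the word lies on the other strand. Where there are no capitals, these letters are not in the window.
Intron of nAChRalpha3, no word, chrX:8295973-8296073: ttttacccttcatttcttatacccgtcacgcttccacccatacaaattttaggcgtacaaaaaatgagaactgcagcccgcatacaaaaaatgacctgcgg
Upstream of brk, chrX:7307000-7307100: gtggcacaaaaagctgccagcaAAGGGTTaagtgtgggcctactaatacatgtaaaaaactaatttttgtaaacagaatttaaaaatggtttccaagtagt
Intergenic, near Inx2, no word, chrX:7004253-7004353: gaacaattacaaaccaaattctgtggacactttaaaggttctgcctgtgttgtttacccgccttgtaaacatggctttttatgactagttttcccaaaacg
Promoter of ph-p, chrX:2137270-2137370: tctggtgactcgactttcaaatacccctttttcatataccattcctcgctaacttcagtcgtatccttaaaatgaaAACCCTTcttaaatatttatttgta
Promoter of gt, chrX:2429101-2429201: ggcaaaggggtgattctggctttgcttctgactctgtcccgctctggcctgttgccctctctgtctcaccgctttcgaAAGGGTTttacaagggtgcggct
The word lay at the brk, ph-p and gt summits, and was not in the windows at nAChRalpha3 and near Inx2, although these peaks ranked 1 and 3 on the X.

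Kr peaks were sparser on the X than on each of the 3 autosomal arms. The X had 10.0 IDR peaks per Mb (exact Poisson 95% interval 8.79 to 11.4), against 19.5 on 2L, 17.1 on 3L and 16.0 on 3R. The 3 arms together had 17.3 per Mb (16.5 to 18.3), so the rate on the X was 0.578 of theirs (exact 95% interval 0.501 to 0.664). An exact conditional binomial test of the counts given the arm lengths gave p = 1.06e-16, two-sided. Against the arms in turn the ratio was 0.514 on 2L, 0.586 on 3L and 0.628 on 3R. The test takes peaks as independent, which peaks in clusters are not. When summits less than 10 kb apart were counted once, 164 such runs on the X against 807 gave a ratio of 0.723 (0.607 to 0.856, exact conditional binomial p = 0.000103). The embryos were of mixed sex with a ratio that is not given, and males carry fewer X copies than autosomes. Fewer copies of the X and less binding per copy cannot be told apart in these lists.

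The lower density was present among weak peaks and larger in the IDR list. The authors' pooled permissive list of 30000 peaks, from which the IDR list was taken, had 194 peaks per Mb on the X and 237 on the 3 arms (ratio 0.821, exact conditional binomial p = 1.37e-34). The IDR list is those pooled peaks that stand above a single level of signal, so the share of permissive peaks that entered it is the share above that level, 7.01% of peaks over the genome. On the X 5.16% of 4576 permissive peaks entered (Wilson 95% interval 4.55 to 5.84). On 2L it was 7.75%, on 3L 7.06% and on 3R 7.22%, and on the 3 arms together 7.33% (6.97 to 7.70). The odds ratio of X against the 3 arms was 0.688 (0.595 to 0.793, Fisher's exact test, p = 9.18e-08).

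Both replicates had the lower X share when each was ranked alone. With each replicate cut to as many peaks as the IDR list, 223 peaks of replicate 2 were on the X, which was 4.81% of its X peaks against 7.28% on the 3 arms. In replicate 3 they were 250, or 5.72% against 7.25%. The upper tail of the permissive signal was lower on the X as well. Its 95th percentile was 64.4 on the X and 75.8 on the 3 arms in replicate 2, and 47.2 against 51.2 in replicate 3. The medians of the permissive peaks lay closer together, at 25.2 and 27.1 in replicate 2 and 19.8 and 20.4 in replicate 3. Peak height is here the signal value the authors deposited, whose scale is not stated. It serves to rank peaks within a list.

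**Figure D1:**
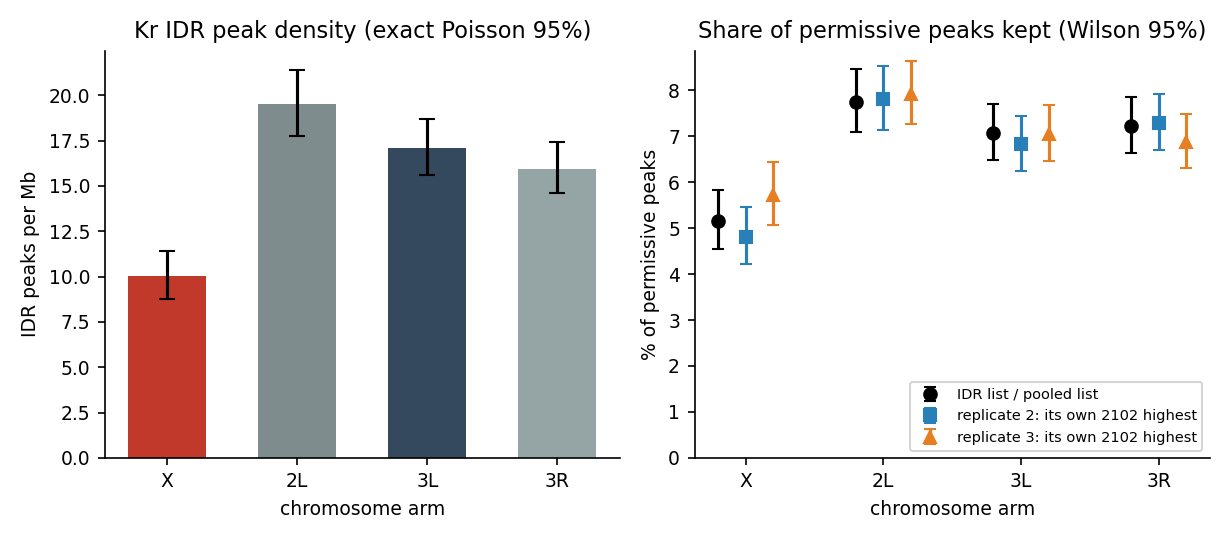
Left, IDR peaks per Mb on the X, 2L, 3L and 3R (bars, with exact Poisson 95% intervals); right, the percentage of permissive peaks of each arm that were in the IDR list (black) or among the highest peaks of replicate 2 (squares) or replicate 3 (triangles), as many as in the IDR list, with Wilson 95% intervals. The X stands lowest in each series, at 10.0 peaks per Mb and at 5.16%, 4.81% and 5.72%.

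Among peaks in the IDR list, the medians of signal on the X and elsewhere differed by less than the spread of the replicates. In replicate 2 the X peaks ran from 35.1 to 349 with a median of 79.0, against a median of 83.1 on the 3 arms. In replicate 3 they ran from 18.9 to 258 with a median of 58.8, against 56.3. The X was thus the lower in replicate 2 and the higher in replicate 3, by a log2 difference of medians of -0.07 and 0.06 (mean -0.01 ± 0.10, SD, n = 2). With 2 replicates the smallest p that an exact sign permutation allows is 0.5. By pooled signal the IDR peaks had a median of 131 on the X (quartiles 117 and 166) and 132 on the 3 arms. All arms were cut at the same level, with a lowest signal of 103.2 on the X and 103.0 on the 3 arms. Near-equal medians are thus partly built into the list, and do not show equal binding. Among the 100 highest IDR peaks of the genome 14 were on the X, which was 5.93% of X peaks against 3.93% on the 3 arms (odds ratio 1.54, 0.780 to 2.86, Fisher's exact test, p = 0.161). The lowest X peak in the list had a signal of 103.2, and the next X peak outside it, at a promoter of CG2004, had 102.9.

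Replicates 2 and 3 both held nearly all X peaks. Summits of both replicates lay within 250 bp for 234 of 236 X peaks, or 99.2% (Wilson 95% interval 97.0 to 99.8). The pooled peaks were called from these same replicates, so a high share is built in and is no measure of replication. Signal was higher in replicate 2 at 188 of the 234, and in 1166 of 1437 matched peaks of the 3 arms, so the lists differ in scale. The ratio of replicate 2 to replicate 3 had a median of 1.36 on the X, where 2L had 1.47, 3L 1.45 and 3R 1.52. Across the 234 peaks Spearman's rho between replicates was 0.372, and 0.321 on the 3 arms, a description over peaks of the same 2 libraries. The highest peaks of each replicate, as many as in the IDR list, held 126 X peaks in common, or 53.4%, against 53.2% on the 3 arms. A further 47 X peaks were that high only in replicate 2, 51 only in replicate 3 and 12 in neither.

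**Figure D2:**
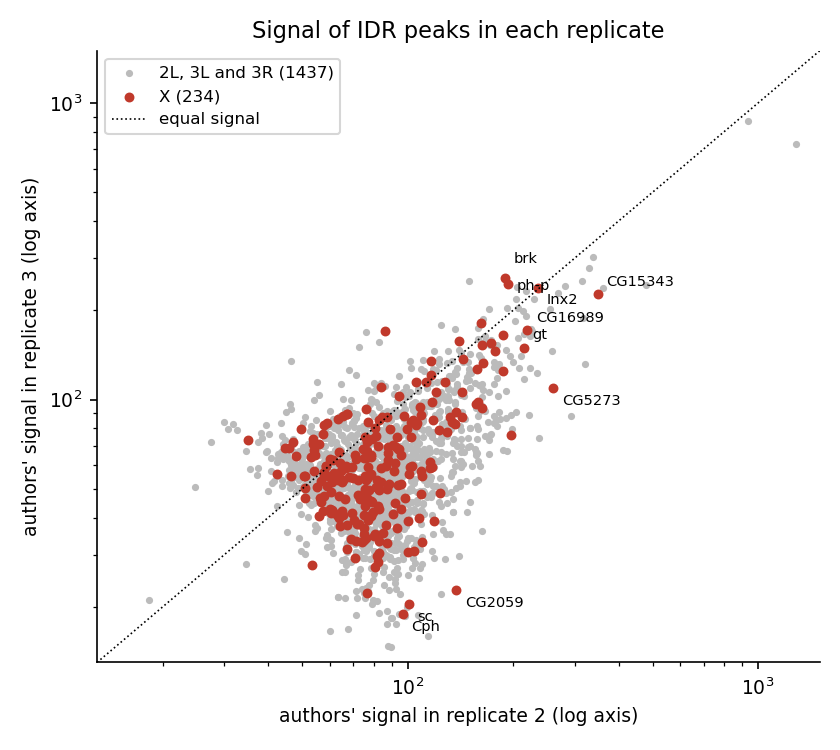
Each point is an IDR peak matched in both replicates, placed by the authors' signal in replicate 2 and replicate 3 on log axes, red for the X (234) and grey for 2L, 3L and 3R (1437); names are those of the nearest start site. The X peaks lie within the cloud of the other arms, with brk, ph-p and CG15343 at the top and CG2059, sc and Cph far below the line of equal signal.

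The X peaks least alike between the replicates included several in the stretch from Cph to brk and the one at the neural gene scute. At the promoter of CG2059 the signal was 138 in replicate 2 and 22.8 in replicate 3, a ratio of 6.05. The value in replicate 2 belongs to a single replicate peak that also matched the IDR peak 200 bp away at the CG1677 promoter, which had 90.8 in replicate 3. Such shared matches touched 6 X peaks in replicate 2 and 2 in replicate 3. At a promoter of Cph the values were 97.1 and 18.9, a ratio of 5.14. At scute (sc) they were 100.9 and 20.4, a ratio of 4.94. In the other direction a peak near CG4004 had 35.1 and 73.4, a ratio of 0.478. The second peak at brk had 86.4 and 170, a ratio of 0.508, and a promoter peak at CG15771 had 49.5 and 79.3, a ratio of 0.624. A further peak near CG4004, of 115 in replicate 2, had no match in replicate 3, and the second peak in nAChRalpha3, of 111 in replicate 3, had none in replicate 2.

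The 12 highest X peaks marked genes of many kinds, and each had a signal over 100 in both replicates. The highest, rank 15 of all IDR peaks, lay in an intron of nAChRalpha3, a subunit of the nicotinic acetylcholine receptor (chrX:8295889-8296122), with 349 in replicate 2 and 226 in replicate 3. The nearest start site was that of CG15343, 22217 bp away. Rank 22 was upstream of brinker (brk), a repressor of Dpp target genes, 889 bp from its start and inside an intron of CG1677 (chrX:7306902-7307163), with 190 and 258. Rank 23 was intergenic, 5631 bp from a start of Inx2, an innexin subunit of gap junctions, with 235 and 239.

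Next came ph-p, which encodes Polyhomeotic of the Polycomb repressive complex 1. Its promoter held X ranks 4 and 11, with 194 and 245 at the higher and 178 and 146 at the lower. The promoter peak of CG5273 had 261 and 109, the most uneven of the 12. A peak in the 3′ UTR of CG16989 had 220 and 172.

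The gap gene gt had its peak 184 bp from the start site (chrX:2429056-2429237), with the Kr word. Its signal was 215 and 150 (mean 182 ± 45.9, SD, n = 2). The remaining peaks lay in introns of pico, an adaptor of the actin regulator Enabled, with 188 and 165, of CG32772, with 162 and 181, and of the Tousled-like kinase gene Tlk, with 163 and 153. The promoter of kek5, a transmembrane protein of the kekkon family, had 173 and 155. Of the 12 peaks, those at brk, CG32772 and the higher one at ph-p were higher in replicate 3, together with Inx2, and the rest were higher in replicate 2.

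X summits lay outside protein-coding genes and their promoters less often than summits of the 3 arms. A summit within 500 bp of the start of any protein-coding gene counted as promoter, and the rest were assigned to untranslated regions (UTR), coding exons or introns of protein-coding genes, or else to the intergenic class, which may hold non-coding RNA (ncRNA) genes. Intergenic summits were 44 of 236, or 18.6% (Wilson 95% interval 14.2 to 24.1), against 31.2% (28.9 to 33.6) on the 3 arms. The odds ratio was 0.505 (0.349 to 0.719, Fisher's exact test, Benjamini-Hochberg adjusted p = 0.000351 over 6 classes). By arm the share was 32.5% on 2L, 34.5% on 3L and 27.0% on 3R. Intergenic sequence made up 26.8% of bases on the X and 30.6% on the 3 arms, a smaller gap than that of the summits. Of the 44 X summits 17 lay inside annotated ncRNA genes. The summits outside those as well were 27, or 11.4%, against 27.2% (odds ratio 0.346, 0.219 to 0.528, Fisher's exact test, adjusted p = 2.88e-07 over 7 classes), where such sequence made up 23.3% and 28.8% of bases, a count chosen after the values were seen. The difference in the intergenic class missed the threshold against 3R alone (odds ratio 0.621, adjusted p = 0.0809, Fisher's exact test) and among the 1051 IDR peaks of higher signal (0.542, adjusted p = 0.0838).

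The other classes did not pass the adjusted test. Promoters held 78 X summits, or 33.1% (27.4 to 39.3), against 28.4% on the 3 arms, with promoter bases at 11.0% and 11.3% (odds ratio 1.24, adjusted p = 0.246, Fisher's exact test). Introns held 108, or 45.8%, against 38.6% (odds ratio 1.34, adjusted p = 0.110, Fisher's exact test). The 3′ UTRs held 4, or 1.69%, against 0.482%, and the higher were at CG16989 and in Act5C, a cytoplasmic actin gene, with 95.6 and 52.0. The 5′ UTRs held 2, at baz, a cell polarity gene of the Par family, with 76.5 and 71.8, and at Raf, with 58.3 and 59.8. After Inx2 the highest intergenic peak lay 11308 bp from CG12496, with 197 and 75.8. No X summit lay in a coding exon outside promoters and 5′ UTRs, a class with 14.1% of X bases. With 0 of 236 the Wilson interval reaches 1.60%, and the 3 arms had 6 such summits, or 0.413%. This depends on the promoter width, since with promoters of 200 bp the class was not empty on the X (odds ratio 0.557). The median distance from an X summit to the nearest start was 1330 bp, against 2350 bp.

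**Figure D3:**
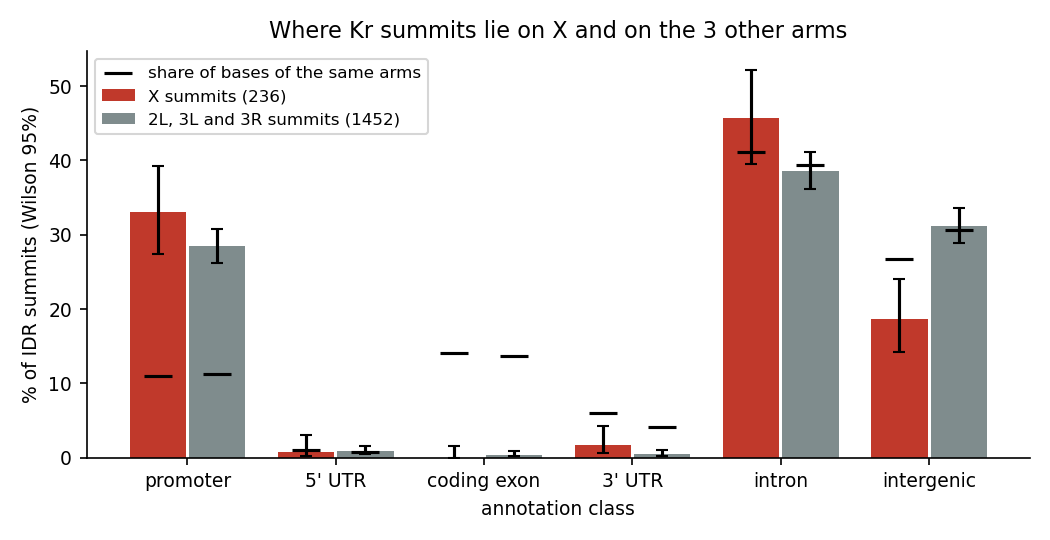
Percentage of IDR summits in 6 annotation classes for the X (red, 236 summits) and for 2L, 3L and 3R together (grey, 1452), with Wilson 95% intervals; black dashes give the share of bases in the same class. Promoters stand at 33.1% on the X, far above their 11.0% of bases, and intergenic summits at 18.6% against 31.2% on the 3 arms.

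Long non-coding RNA genes covered many of the X summits. Summits inside annotated ncRNA genes were 43 on the X, or 18.2% (13.8 to 23.6), against 6.75% on the 3 arms (odds ratio 3.08, Fisher's exact test, p = 8.90e-08), a count chosen after the values were seen. Such genes also covered more of the X, 7.54% of bases against 3.07%, and the test did not take that into account. On the X and on the 3 arms alike the share of summits was above the share of bases. The test also takes summits as independent, which summits clustered in a single gene are not. Of the 43, 19 lay in lncRNA:CR44357, which spans most of Cph, CG1677 and all of brk, both brk peaks among them. A further 6 lay in lncRNA:CR32773 beside bi and peb, and others in lncRNA:enrr at elav and in lncRNA:Vinr near CG4004.

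The Kr word AAGGGTT was sought on both strands within 100 bp of each summit. It was present at 42 X summits, or 17.8% (Wilson 95% interval 13.4 to 23.2), against 2.10% of X windows of the same length laid end to end and 5.41% of X permissive summits outside the IDR list. On the 3 arms it was present at 12.2%. The difference between X and the 3 arms missed the threshold after adjustment over 5 words (odds ratio 1.56, Fisher's exact test, p = 0.0213, adjusted p = 0.0631). On the X the word was present at 10 of 78 promoter summits, or 12.8%, and at 32 of 158 others, or 20.3%. It was about as frequent in the X peaks of higher signal, at 17.5%, as in those of lower signal, at 18.0%.

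Words of 4 other factors were counted in the same windows, and none passed the adjusted test between the X and the 3 arms. GAGAGAG, bound by the GAGA factor, was at 32 X summits, or 13.6%, against 9.50%, and was also commoner in X windows at large (2.95% against 2.33%; Fisher's exact test between summits, adjusted p = 0.103). TATCGATA, bound by the replication-related factor DREF, was at 7, or 2.97%, against 1.03% (adjusted p = 0.0631, Fisher's exact test). CAGGTAG, bound by the early activator Zelda, was at 4, or 1.69%, against 3.51% (adjusted p = 0.211, Fisher's exact test), and 1.00% of X windows held it. TAATCC, bound by Bicoid, was at 15, or 6.36%, with 6.66% of X windows holding it, and 6.47% of summits on the 3 arms (adjusted p = 1, Fisher's exact test). A match is a run of letters and does not show that a factor was bound.

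X summits had a larger median spacing than those of each autosomal arm. The median distance to the nearest IDR summit was 10.6 kb on the X (quartiles 2.40 and 30.9), against 3.77 kb on 2L, 5.37 kb on 3L and 4.03 kb on 3R. A neighbour within 10 kb was present for 116 X summits, or 49.2% (Wilson 95% interval 42.8 to 55.5), against 66.4% (63.9 to 68.8) on the 3 arms. Of the 164 X runs, 120 were a lone summit. The 17 runs of 3 or more summits held 26.3% of X peaks, against 40.2% on the 3 arms. No X run had more than 7 summits, where the longest had 14 on 2L, 11 on 3L and 22 on 3R. A lower density by itself widens spacing, and no test of clustering apart from density was made. When overlapping X peaks were merged, 225 regions were left.

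**Figure D4:**
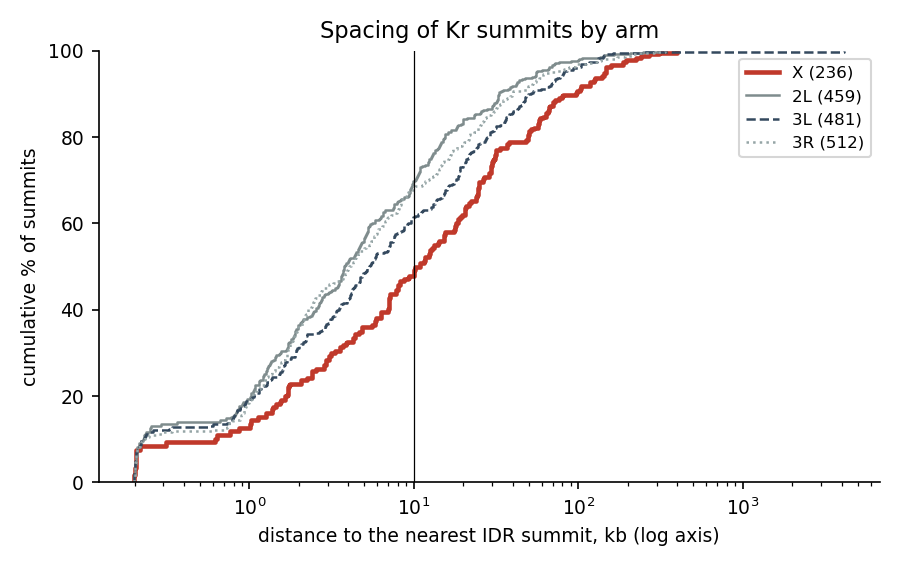
Cumulative percentage of IDR summits against the distance to the nearest other IDR summit in kb (log axis), for the X (236), 2L (459), 3L (481) and 3R (512), with a vertical line at 10 kb. The X curve runs below the others and crosses 10 kb at 49.2%, while the 3 arms together reach 66.4%.

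Peaks were uneven along the X, as they were along the other arms. In windows of 1 Mb the count ran from 0 to 29 with a median of 10. The variance of these counts over their mean was 4.19 on the X, the lowest of the 4 arms, against 4.43 on 2L, 7.18 on 3L and 6.11 on 3R. The window from 7 to 8 Mb, with Cph, CG1677, brk and ct, held 29, and that from 2 to 3 Mb, with ph-p, Raf and gt, held 23. The first 10 Mb held 146 of the 236 peaks, or 61.9%, and only 4 lay beyond 20 Mb, toward the centromere. The share of permissive peaks that entered the IDR list was 5.94% in the first 10 Mb, 4.57% between 10 and 20 Mb and 1.69% beyond, where there were 237 permissive peaks. No test was made of this gradient, and the same stretches were not compared on the other arms. On 2L and 3L the window with most peaks, 48 and 44, began at 14 Mb. Empty windows toward the centromere are not particular to the X. On 3L and on 3R 4 windows had no peak, and these also lay toward the centromere.

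The longest X run had 7 summits over 21.5 kb, from chrX:7272915 to 7294439. It covers CG2059, unc-119 and an end of CG1677, and its signals ran from 44.8 to 138 in replicate 2 and from 22.8 to 90.8 in replicate 3. A run of 5 lay at Raf, the kinase that passes the Ras signal to the MAP kinase cascade, over 9.37 kb. Its signals were much more even, from 58.3 to 93.6 in replicate 2 and 59.8 to 79.6 in replicate 3. Another run of 5, wholly outside protein-coding genes, lay between CG4004 and Paics, a gene of purine synthesis, over 4.16 kb, and 4 of its summits were inside lncRNA:Vinr, lncRNA:CR44619 or both. Runs of 4 lay at elav, ph-p and Hr4, which encodes a nuclear receptor.

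By gene, 304 of 2196 protein-coding X genes had an IDR summit in the body or within 5 kb, or 13.8%, against 1689 of 8817 genes, or 19.2%, on the 3 arms (odds ratio 0.678, 0.592 to 0.775, Fisher's exact test, p = 3.72e-09). Neighbouring genes share summits, so genes are not independent. Longer genes had the larger shares, with 6.58% of X genes under 2 kb, 12.6% of those from 2 to 5 kb, 18.9% from 5 to 20 kb and 38.9% of those of 20 kb or more. By the gene body alone, 113 X genes were occupied. The median X gene had 0 summits and a length of 2521 bp. Of the occupied genes 228 had 1 summit and 52 had 2. The start sites nearest to the 236 peaks belonged to 167 distinct genes.

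Most of the X genes with the most summits were long. CG1677, a gene of 124709 bp around brk, had 10, and Cph, which encodes a zinc finger factor, had 7 with 97.5 and 88.1 at its highest. Raf also had 7, with 88.8 and 79.6 at its highest. The receptor gene Notch (N) had 5, of which the highest lay in an intron with the Kr word and had 157 and 96.8. Hr4 had 5 with 83.0 and 85.5 at its highest, kirre 5 with 117 and 59.4, and ph-p, of 12162 bp, had 5, of which 3 lay in its body.

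The genes of head and trunk patterning were read against that background of 13.8%. Of 8 listed X genes 4 had an IDR summit, with a median of 0.5 summits and a median length of 6403 bp, beside 18.9% of all X genes from 5 to 20 kb. Here and in the lists below the length class is that of the median, and each list also holds genes of other classes. In this list oc, Sp1 and disco-r were over 20 kb, a class with 38.9%. Within 2 kb of the gene there were 2, gt and oc, where 10.2% of all X genes had a summit, and inside the body alone 1, oc, against 5.15%. After gt came ocelliless (oc), the homeobox gene of the head also called orthodenticle, with an intronic peak of 81.7 and 29.8. The zinc finger gene disco had a peak 4684 bp from its start with 64.9 and 42.2. Sp1 had a peak beyond its 3′ end with 60.1 and 42.9, and both carried the word. These peaks of oc, disco and Sp1 lay near the lower end of the list, at ranks 1497, 2024 and 2047. A higher peak, rank 254 with 143 and 87.7, had disco as its nearest start, 13017 bp away. It lay outside the window of 5 kb and was not counted for disco.

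No IDR summit lay at the pair-rule gene run, whose best pooled peak ranked 2611, below the list. The head gap gene buttonhead (btd) had its best at 4147 and disco-r at 4544, and extradenticle (exd), a Hox cofactor, had no pooled peak within 5 kb. Without replicate 2, when the top peaks of replicate 3 took the place of the list, Sp1 was lost, and without replicate 3 both Sp1 and disco were. That holds for the window of 5 kb, which leaves out the higher peak near disco.

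In the dorsoventral list 2 of 5 X genes had summits, with a median of 0 and a median length of 3083 bp, beside 12.6% of all X genes from 2 to 5 kb. Within 2 kb only brk had one, and inside the body neither did. At brk the 2 peaks stood 199 bp apart, each with a Kr word within 100 bp, and the lower ranked 178. A peak with 132 and 87.4 lay within 5 kb of crossveinless (cv), which encodes a secreted protein that modulates BMP, but nearer to the start of CG3149. The BMP antagonist genes sog and tsg had pooled peaks at ranks 4027 and 15332 and no IDR summit, and gd, a protease gene, had no pooled peak. In Wnt and Hedgehog signalling 1 of 5 genes was occupied, at a median length of 3450 bp and beside the same 12.6%. That was shaggy (sgg), the glycogen synthase kinase 3 gene, with a promoter peak of 57.5 and 76.8 that was lost without replicate 3. The β-catenin gene arm, dsh, fu and por had none.

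Of 9 X genes of sex determination and dosage compensation, 4 had an IDR summit, with a median of 0 and a median length of 3014 bp, beside 12.6% of all X genes from 2 to 5 kb. Within 2 kb of the gene there were 2, sisA and sc. The X-signal gene sisterless A (sisA) had a peak 587 bp from its start, with 74.0 and 33.1. The proneural and X-signal gene sc had one 21 bp from its start, with 100.9 and 20.4. Both of these carried the Zelda word, as gt did, and were 2 of the 4 X summits that held it. Both were lost without replicate 2. Near Sex lethal (Sxl), the switch gene of female fate, the peak had 81.0 and 80.2, and lay 3704 bp from a start of Sxl but inside an intron of CG4615. Near mof, the histone acetyltransferase gene of dosage compensation, it had 55.3 and 50.6, lay at the promoter of CG16721, and was lost without replicate 3. None of the 4 lay inside the body of the gene. The replicates thus differed most at the 2 early X-signal genes and least at Sxl and mof.

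The remaining members had none, among them run again, upd1, a ligand of the JAK-STAT pathway with its best pooled peak at rank 5490, and the splicing gene snf. The RNA genes roX1 and roX2, from which dosage compensation spreads over the male X, had best pooled peaks at ranks 8867 and 8277, with pooled q-values of 0.188 and 0.164. Of the early zygotic genes, sisA alone among 3 was occupied, at a median length of 846 bp and beside 6.58% of all X genes under 2 kb. The pioneer factor gene zelda (zld) had its best pooled peak at rank 2179, just outside the list, and had summits among the top peaks of each replicate alone. The cellularization gene nullo had its best at rank 6719.

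Neural genes were occupied in 8 of 16 cases, with a median of 0.5 summits and a median length of 15012 bp, beside the 18.9% of all X genes from 5 to 20 kb. Many of them, N, fne, Fas2, Nrg, Appl, futsch and sdk, were longer than 20 kb, a class with 38.9%. The strongest after N was elav, the RNA-binding protein gene of neurons, with 137 and 82.9 at a promoter and 4 summits in all. The peaks at Appl, a transmembrane protein gene of neurons, had 75.9 and 75.02 at the higher, and it stood 3785 bp from a start of Appl and inside arg. The homeobox gene vnd of the ventral column had a promoter peak with 75.4 and 49.0. The others occupied were sc, ewg, Fas2 and sdk, and ewg and sc were lost without replicate 2, where B-H2 was gained. The other proneural genes of the complex of sc had none. The best pooled peak ranked 3170 at l(1)sc, 3923 at ase and 6208 at ac.

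Of 14 genes of epithelia, muscle, blood and signalling 7 were occupied, with a median of 0.5 and a median length of 20823 bp, beside 38.9% of all X genes of 20 kb or more. Tre1, a receptor gene of germ cell migration, had an intronic peak with 117 and 135. kirre, an adhesion protein gene of muscle founders, had 5 summits. The TEAD factor gene sd had 2, the higher with the Kr word and 95.6 and 65.2, and the cytokine gene upd3 had 2 with 79.3 and 73.9 at the higher. The homeobox gene ct, the zinc finger gene peb and the T-box gene bi were lost with a single replicate, peb without replicate 2 and the others without replicate 3. For ct this concerns a peak in its 3′ UTR, at rank 1967. A higher peak 5088 bp from its start, at rank 677 with 87.8 and 69.3, lay just outside the window of 5 kb and was not counted. The integrin genes if and mys were gained without replicate 2, and the blood and eye gene lz without replicate 3.

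Ribosomal protein genes had the highest share of the 9 lists, 9 of 14, at a median length of 1603 bp, beside 6.58% of all X genes under 2 kb. At 7 of them the summit was from 3 to 48 bp from the gene's own start. Signals at these 7 ran from 45.9 to 117 in replicate 2 and from 38.1 to 98.2 in replicate 3. The highest, RpS10b, had its summit 3 bp from its start, with 117 and 98.2. RpS28b, also at 3 bp, had 92.5 and 69.3, and RpS15Aa, at 4 bp, had 88.2 and 66.2. At none of the 9 occupied genes did the highest peak have the Kr word within 100 bp. The peaks counted for RpL22 and RpL35 belonged nearer to other genes, CG5273 and Tre1. Without replicate 2 RpL37-1 was lost, and without replicate 3 RpS19a and RpS5a were.

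A last list was named adult-restricted and meant as a contrast. Its members were not checked against expression, and some may be active before the adult, so it is a loose contrast. Of its 15 genes 3 were occupied, with a median of 0 and a median length of 2200 bp, beside 12.6% of X genes from 2 to 5 kb. The 3 were ec, an eye gene with a promoter peak of 124 and 48.5, the pigment gene g and the yolk protein gene Yp3. At g and Yp3 the peaks lay at the promoters of CG11151 and Pdcd4. The chorion genes and the genes white, yellow and vermilion had none.

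**Figure D5:**
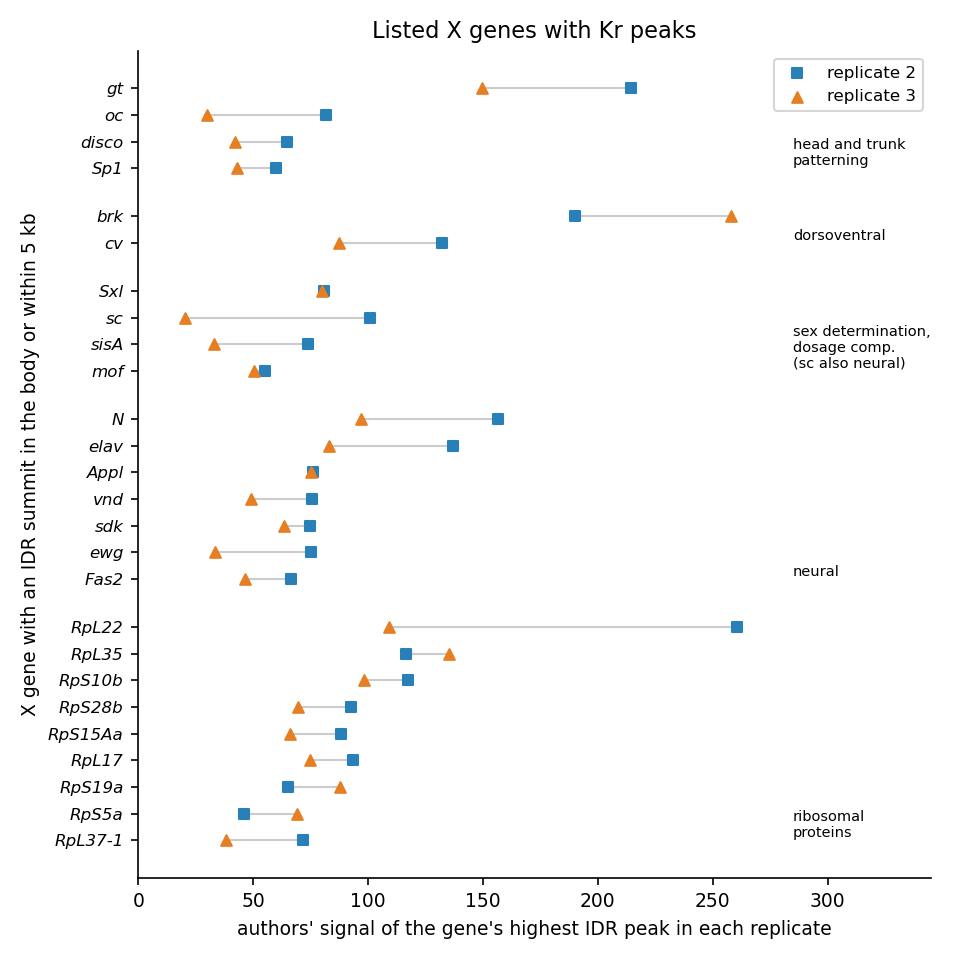
Authors' signal in replicate 2 (squares) and replicate 3 (triangles) of the highest IDR peak within 5 kb of listed X genes, grouped by list, with a grey line joining the replicates. The peaks at brk, gt and RpL22 lie highest, and the one counted for RpL22 is at the promoter of CG5273. Those at Sxl and Appl nearly coincide, and sc has the longest relative span, 100.9 against 20.4.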

How the data were processed

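Per the deposited text lists of files, the authors called permissive peaks in replicate 2, in replicate 3 and in their pooled reads, with a control that was not analysed here, and thresholded them by IDR. The sources used here name neither the aligner, nor the peak caller, nor the IDR threshold. The signal of a peak is the authors' deposited value, of unstated scale. A second deposited column holds the −log10 of a q-value, read so from the narrowPeak layout, and among X peaks of the IDR list q ran from 0.000490 to 0.00322. The files hold no read counts, so depth is unknown, and intervals cover counting error only.

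Of the IDR peaks on the X, 218 of 236 were 440 bp wide. Peak coordinates fit within the chromosome lengths of the RefSeq dm6 sequence. Coordinates start at 1. Genes came from Ensembl release 115 (BDGP6), with 13945 protein-coding genes on the X and the autosomes. Replicate peaks were matched within 250 bp of a summit. Counts per length were compared by the exact conditional binomial test and shares by Fisher's exact test, two-sided, with Benjamini-Hochberg adjustment over classes or words. Peaks are the units of these tests, not samples, and they come from the same 2 libraries, so p-values do not measure spread between embryos. Both tests were tried on simulated independent counts, which does not show how they behave on clustered peaks. Python 3.11.15 with scipy 1.17.1 was used.

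The members and gene lists were chosen with earlier results of these data known. Named genes are the 12 highest X peaks, all patterning and sex genes, up to 4 members of other lists, the genes with most summits or in the longest runs, the top 2 peaks of each class, and the peaks with the 3 highest and 3 lowest ratios or no match. Genes beyond that, such as unoccupied members, complete a list, and were named after their values were seen. Alternatives were the highest peaks of each replicate, as many as in the IDR list, the 1051 highest IDR peaks, dm3 lists, other comparators, and other distances, widths and windows. Counting ncRNA genes as genes was added after seeing the data.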

Additional observations from a re-analysis of the deposited data

How the results depend on the processing

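Of 203 alternatives, 172 left the result as reported, on the same side of its threshold, within its error or, for counts of runs and genes, within a set factor. That factor is a wide margin and no measure of error. The X genes with a summit, 304 as reported, were 223 within 2 kb and 430 within 10 kb, and both counted as unchanged. In 11 the value crossed to the other side of no difference, all in 4 results of which none passed a threshold there or as reported. The odds ratio of 5′ UTR summits ran from 0.946 up to 1.90 with promoters of 200 bp, that of coding exons was 1.16 without replicate 2, from 0, and that of the Bicoid word 1.06 in windows of 200 bp, from 0.981. The other was the signal difference. Using the higher-signal part of the list or 3R alone, the odds ratio for intergenic X summits was 0.542 and 0.621 and no longer passed. The median spacing on the X was 10.2 to 12.9 kb with 1 replicate left out and 12.8 kb with overlapping peaks merged, and its ratio to the 3 arms was 2.50 to 2.53 and 2.23, from 2.42. The X genes with a summit were 113 by gene body alone and 193 by the higher-signal part, from 304, in settings that use fewer bases or peaks. The counts of listed genes depend on the window of 5 kb. By gene body alone 5.15% of all X genes had a summit. The sex list then had 0 of 9, the dorsoventral list 0 of 5 and the early zygotic list 0 of 3. Neural genes had 4 of 16 and ribosomal protein genes 4 of 14. Within 10 kb 19.6% of all X genes had a summit, and neural genes had 10 of 16. Matching within 100 bp gave 91.9% in place of 99.2%. With 1 replicate left out the density ratio was 0.551 to 0.616 and the odds ratio of permissive peaks kept 0.644 to 0.776. The signal difference was -0.07 in replicate 2 alone and 0.06 in replicate 3 alone, a change of sign within the replicate SD, and 0.0029 against 3R alone. In dm3 the X held 14.3% of IDR peaks of the 4 arms, against 13.98% in dm6. The share of 3′ UTR summits could not be compared with 3L, which had 0. No paired analysis was possible because there was 1 group. Depth is unknown, so what it limits cannot be given, and peak lists of 2 libraries with unequal scale do not measure binding per X copy.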
